A study of Mus musculus with 12 samples.

Results

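Expression of the Notch pathway was followed in the embryonic mouse face through 10 of its genes: the receptors *Notch1*, *Notch2* and *Notch3*, the ligands *Jag1* and *Dll1*, the fringe genes *Mfng* and *Lfng*, and the target genes *Hes1*, *Hes5* and *Hey1*. The genes were listed by name, and all 17 array probe sets annotated to them were taken, of 45037 probe sets and 18193 named genes on the array. The receptors had 6 probe sets, the ligands 4, the fringe genes 3 and the targets 4. Where a gene had several, it was represented by the probe set with the highest mean over all arrays, called its brightest, and the others are reported beside it.

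The 12 Affymetrix mouse arrays measured total RNA of nasal and maxillary prominences, the facial swellings that form the upper lip, dissected at E10.5. NeoNull embryos (aflox/null) carried the Neo allele of *Tfap2a*, which has lowered function, opposite a null allele. Controls (aflox/wt) carried the same Neo allele opposite a wild-type allele, so neither genotype was wild type. Each of the 4 groups had 3 independent pools of tissue from several embryos, taken from an outbred Black Swiss stock. Whether embryos with an open neural tube, a further defect of NeoNull embryos, were in the pools is not stated. *Tfap2a* encodes the transcription factor AP-2α. Its log2 signal lay between 9.06 and 9.22 on all 12 arrays, and this probe set does not tell whether its message was functional, so it does not check the genotype labels.

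Notch receptors are cut after they bind a ligand of the Jagged or Delta type on a neighbouring cell. The released part of the receptor enters the nucleus and, with the DNA-binding protein Rbpj, switches on genes such as the *Hes* and *Hey* genes, which encode repressors. Fringe enzymes add sugars to the receptor and so change which ligands activate it. The pathway is known for holding neural progenitors undifferentiated and for shaping blood vessels, and human mutations in *JAG1* and *NOTCH2* cause Alagille syndrome, in which the face is affected.

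Promoter sequence of the members is shown because Notch target genes are read through Rbpj sites close to their start. A window of 250 bases before to 50 after the start (RefSeq, mouse GRCm38.p6) was at hand for 7 of the 10 members, and *Mfng*, *Hes1* and *Hey1* had none. The letters GTGGGAA, known as the core of an Rbpj site, were searched on both strands and were found in 2 of the 7, *Hes5* and *Lfng*. They were in 6.38% of all 32851 promoter windows of that length, and 2 or more matches were in 0.256%. These shares count windows, whereas genes were counted if any of their windows held a match, and the 7 members had 8 windows. *Hes5* had 2 matches, which began at positions -226 and -83 counted from the start. *Lfng* had 1, beginning at -109, whose letters overlap an E-box, CACGTG, a motif found in 7.15% of the windows. Both windows are printed on the gene's own strand with the matches in capitals, *Hes5* from chr4:154960673-154960972 and *Lfng* from chr5:140607091-140607390, both on the plus strand.
*Hes5*: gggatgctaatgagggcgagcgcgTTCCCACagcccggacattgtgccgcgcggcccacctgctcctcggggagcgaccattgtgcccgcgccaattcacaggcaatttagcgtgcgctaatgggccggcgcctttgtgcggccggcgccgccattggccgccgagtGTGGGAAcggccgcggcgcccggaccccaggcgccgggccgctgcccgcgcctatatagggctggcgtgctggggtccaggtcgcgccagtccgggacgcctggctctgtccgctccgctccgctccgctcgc
*Lfng*: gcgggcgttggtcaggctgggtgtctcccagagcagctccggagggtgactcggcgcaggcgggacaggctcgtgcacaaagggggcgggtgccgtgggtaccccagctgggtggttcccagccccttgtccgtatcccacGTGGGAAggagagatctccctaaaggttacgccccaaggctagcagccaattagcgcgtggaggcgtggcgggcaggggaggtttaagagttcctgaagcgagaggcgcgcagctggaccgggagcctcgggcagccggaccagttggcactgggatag
In *Hes5* the upstream match reads on the minus strand, so its capitals are the complement of the searched letters in reverse order. Of the other pathway genes listed for this work, 5 of 41 with a window held a match, among them the target genes *Hes7* and *Hey2*. A match is a run of letters and was not tested for binding.

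The arrays were alike in scale, with medians of 5.13 to 5.19 log2 units and correlations of 0.9958 to 0.9977 within groups. The labels of the prominences were borne out by marker genes. *Dlx1*, a homeobox gene of the jaw-forming tissue, lay between 9.31 and 9.48 in maxillary pools and between 4.89 and 5.39 in nasal pools. *Pax7*, a gene of the nasal region and its crest cells, lay between 8.10 and 8.76 in nasal pools and was called absent in maxillary tissue. One pool stood apart: control maxilla replicate 3 had a summed signal of 859 over 9 neuron markers, against 2624 and 3187 in the other control maxillary pools and 2714 to 4380 in NeoNull. Differences that use its group are given with all pools. For the brightest probe set of each member, those between 2 groups are given again without it, where first described or in a paragraph of their own. The same was done for some, not all, of the other probe sets, pathway genes and marker lists. Leaving this pool out was a choice made after the data were seen. Of the 17 probe sets, 10 were called present in all 4 groups by the authors, 2 were called absent in all 4 (the second probe sets of *Notch2* and *Lfng*), and 5 had other calls. The calls are present, absent or variable for the 3 arrays of a group together.

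**Figure D1:**
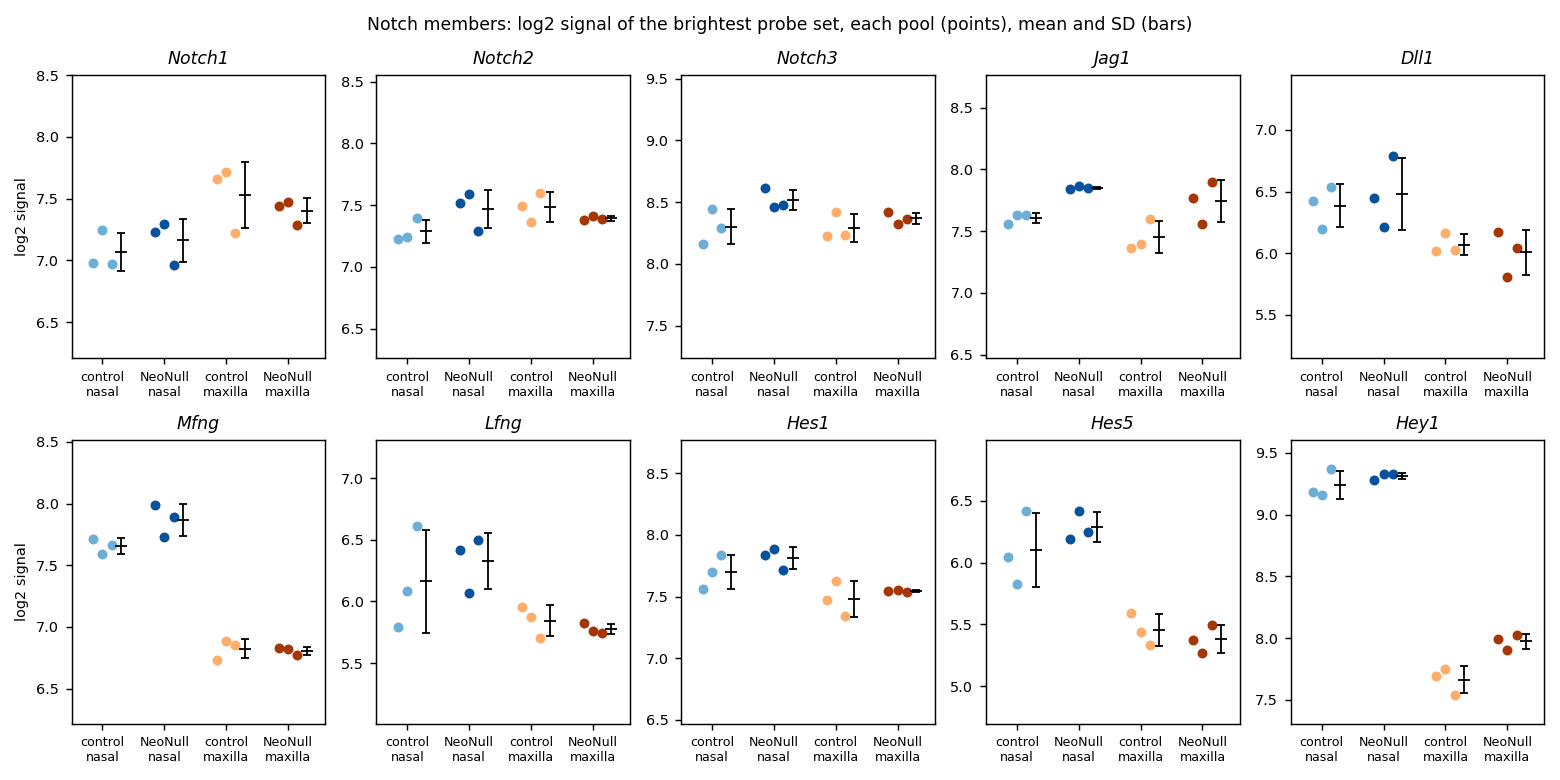
Log2 signal of the brightest probe set of each of the 10 Notch genes in every pool (points; 3 per group), with the group mean and SD (black bars), and each panel spans the same number of log2 units. *Hey1*, *Mfng*, *Hes5* and *Dll1* separate nasal from maxillary pools in both genotypes, and no gene separates NeoNull from control in both prominences. For *Dll1* the nearest pools are only 0.028 (controls) and 0.038 (NeoNull) log2 units apart.

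The largest differences of Notch genes in these arrays were between the prominences. *Hey1*, *Mfng* and *Hes5* were higher in nasal than in maxillary tissue in both genotypes, by 1.56- to 2.98-fold for their brightest probe sets. *Notch1* was the only member called lower in nasal tissue, and only in controls. Differences are nasal minus maxilla on the log2 scale with their standard error (SE) from limma, a linear model fitted to all 12 arrays, and a probe set was tested if it was called present in at least 1 of the 2 groups. In controls, 4 of 13 tested probe sets rose at an adjusted p under 0.05, against 4% of all 23025 probe sets tested, and 1 fell, against 4.22%. In NeoNull, 4 of 14 rose, against 5.65% of 23732, and 0 fell, against 3.99% (0 of the 14 were lower at an unadjusted p under 0.05 either). In each genotype the 4 include both probe sets of *Hes5*, which passed the filter through the nasal groups alone. With presence required in both groups compared, 2 passed in each genotype, *Mfng* and *Hey1*. On the whole array 1413 were then called in controls and 1755 in NeoNull, higher or lower. The share of all probe sets tested under that filter was not computed, so the 2 have no background share beside them. The genes were listed with earlier results of these data known, so the counts describe the list and do not test it. The median difference of the 10 brightest probe sets was 0.27 in controls and 0.37 in NeoNull, where that of all tested genes was -0.01 and 0.02.

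Among the targets, *Hey1* encodes a repressor with a basic helix-loop-helix fold that pairs with the Hes proteins. Its log2 signal was 9.18, 9.16 and 9.37 in the control nasal pools and 7.69, 7.75 and 7.54 in the control maxillary pools. In NeoNull it was 9.28, 9.33 and 9.33 in nasal and 7.99, 7.91 and 8.02 in maxillary pools. All 6 nasal pools thus lay above all 6 maxillary pools, with 1.14 log2 units between the nearest. The difference was 1.58 (SE 0.08, limma adjusted p = 4.30e-08) in controls, a fold of 2.98 with a 95% interval of 2.65 to 3.35, and 1.34 (SE 0.08, limma adjusted p = 1.82e-07) in NeoNull, a fold of 2.53. Without control maxilla replicate 3 the control difference was 1.52.

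*Hes5*, a repressor best known from neural progenitors, was called present in nasal tissue only. On its brightest probe set (1423146_at) the control nasal pools gave 6.05, 5.83 and 6.42 and the control maxillary pools 5.60, 5.44 and 5.34. The NeoNull pools gave 6.19, 6.42 and 6.25 in nasal and 5.37, 5.27 and 5.50 in maxillary tissue. The maxillary values carry calls of variable (control) and absent (NeoNull), so the probe set passed the filter through the nasal groups alone and the fold is limited by background on the maxillary side. The difference was 0.65 (SE 0.13, limma adjusted p = 0.00741) in controls and 0.91 (SE 0.13, limma adjusted p = 0.000537) in NeoNull. With every probe set of the array tested, the adjusted p was 0.0131 and 0.000973. Without control maxilla replicate 3 the control difference was 0.59 (limma adjusted p = 0.0330).

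The second *Hes5* probe set, 1456010_x_at, is of a type that can cross-hybridise to related transcripts. It gave 5.90, 5.74 and 5.79 in control nasal and 4.98, 4.63 and 4.40 in control maxillary pools. In NeoNull it gave 6.20, 6.05 and 6.56 in nasal and 4.44, 4.51 and 4.37 in maxillary pools. It was called absent in control and variable in NeoNull maxillary tissue, so it too passed the filter through the nasal groups alone and its fold is limited by background on the maxillary side. Its groups did not overlap in either genotype. The difference was 1.14 (SE 0.14, limma adjusted p = 0.000209) in controls and 1.83 (SE 0.14, limma adjusted p = 2.66e-06) in NeoNull. With every probe set tested, the adjusted p was 0.000393 and 5.05e-06. The control difference was 1.01 without control maxilla replicate 3 (limma adjusted p = 0.000888).

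*Hes1*, the target most widely expressed in embryonic tissues, was present in every group and did not pass. Its pools lay between 7.56 and 7.89 in nasal and between 7.34 and 7.63 in maxillary tissue, which overlap over all 12 pools. In NeoNull alone the nasal pools lay above the maxillary pools, with 0.16 log2 units between the nearest. The difference was 0.22 (SE 0.09, limma adjusted p = 0.186) in controls and 0.27 (SE 0.09, limma unadjusted p = 0.0105, adjusted p = 0.0839) in NeoNull.

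Of the fringe genes, *Mfng* (manic fringe) had the smaller spread. The control pools gave 7.72, 7.59 and 7.66 in nasal and 6.74, 6.89 and 6.85 in maxillary tissue. The NeoNull pools gave 7.98, 7.73 and 7.89 in nasal and 6.83, 6.82 and 6.77 in maxillary tissue. No nasal pool came near a maxillary pool, and the difference was 0.83 (SE 0.08, limma adjusted p = 1.65e-05) in controls and 1.06 (SE 0.08, limma adjusted p = 1.45e-06) in NeoNull, folds of 1.78 and 2.09.

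*Lfng* (lunatic fringe), which modulates the Notch oscillations of somite formation, did not pass. Its control nasal pools were spread over 5.79, 6.08 and 6.61 and overlapped the control maxillary pools at 5.95, 5.87 and 5.71. In NeoNull the nasal pools, 6.42, 6.07 and 6.50, lay above the maxillary pools, 5.83, 5.76 and 5.75. The difference was 0.32 (SE 0.17, limma adjusted p = 0.315) in controls and 0.55 (SE 0.17, limma adjusted p = 0.0609) in NeoNull. The control value ran from 0.10 without control nasal replicate 3 to 0.51 without control nasal replicate 1. Its second probe set was called absent in all 4 groups and was not tested.

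The ligands did not pass the test between prominences either. *Dll1*, a Delta-type ligand of somites and neuroblasts, gave 6.42, 6.19 and 6.54 in control nasal and 6.01, 6.17 and 6.02 in control maxillary pools. NeoNull nasal pools gave 6.44, 6.21 and 6.79 and NeoNull maxillary pools 6.17, 5.81 and 6.04. The nasal pools were above the maxillary pools in each genotype, with 0.028 (controls) and 0.038 (NeoNull) log2 units between the nearest pools. The difference was 0.32 (SE 0.14, limma adjusted p = 0.218) in controls and 0.47 (SE 0.14, limma adjusted p = 0.0506) in NeoNull. With the pool number as a block, the NeoNull value passed (limma adjusted p = 0.0287). *Jag1*, a Jagged-type ligand, differed by 0.15 (SE 0.09, limma adjusted p = 0.376) in controls and 0.11 (SE 0.09, limma adjusted p = 0.540) in NeoNull.

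*Notch1* was the member called lower in nasal tissue. Its control nasal pools gave 6.98, 7.25 and 6.97 and its control maxillary pools 7.66, 7.72 and 7.22. The groups overlapped, because control maxilla replicate 3 lay just below control nasal replicate 2. The difference was -0.46 (SE 0.13, limma adjusted p = 0.0486), a value close to the threshold: it passed in 6 of 23 alternatives, with adjusted p from 0.00516 to 0.177, and the second *Notch1* probe set differed by -0.04 (SE 0.08). Without control maxilla replicate 3 the difference was -0.62 (limma adjusted p = 0.00628). NeoNull pools gave 7.23, 7.29 and 6.97 in nasal and 7.44, 7.47 and 7.29 in maxillary tissue, a difference of -0.24 (SE 0.13, limma adjusted p = 0.327). The genotypes were not shown to differ in this gap: the difference between them was 0.23 (SE 0.19, limma unadjusted p = 0.247), and 0.38 (unadjusted p = 0.0313, adjusted p = 0.630) without control maxilla replicate 3.

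The other receptors had no call between the prominences in the test above. *Notch2* lay between 7.22 and 7.60 over all 12 pools and differed by -0.20 (SE 0.09, limma adjusted p = 0.232) in controls and 0.08 (SE 0.09, limma adjusted p = 0.693) in NeoNull. *Notch3*, a receptor known from vessel-wall cells and progenitors, lay between 8.16 and 8.61 and differed by 0.01 (SE 0.09) and 0.15 (SE 0.09) in the same order. Its dimmer probe set, 1421964_at, differed by 0.44 in NeoNull (SE 0.14, limma adjusted p = 0.0791) and passed there with the pool number as a block, as *Dll1* did, so that 6 member probe sets passed in place of 4.

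The other members kept their side of the threshold between the control prominences when control maxilla replicate 3 was left out. *Mfng* then differed by 0.85 (limma adjusted p = 0.000106), *Lfng* by 0.25, *Dll1* by 0.29, *Jag1* by 0.23, *Hes1* by 0.15, *Notch2* by -0.14 and *Notch3* by -0.02. Of these, *Jag1* had a limma unadjusted p of 0.0304 and an adjusted p of 0.189.

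**Figure D2:**
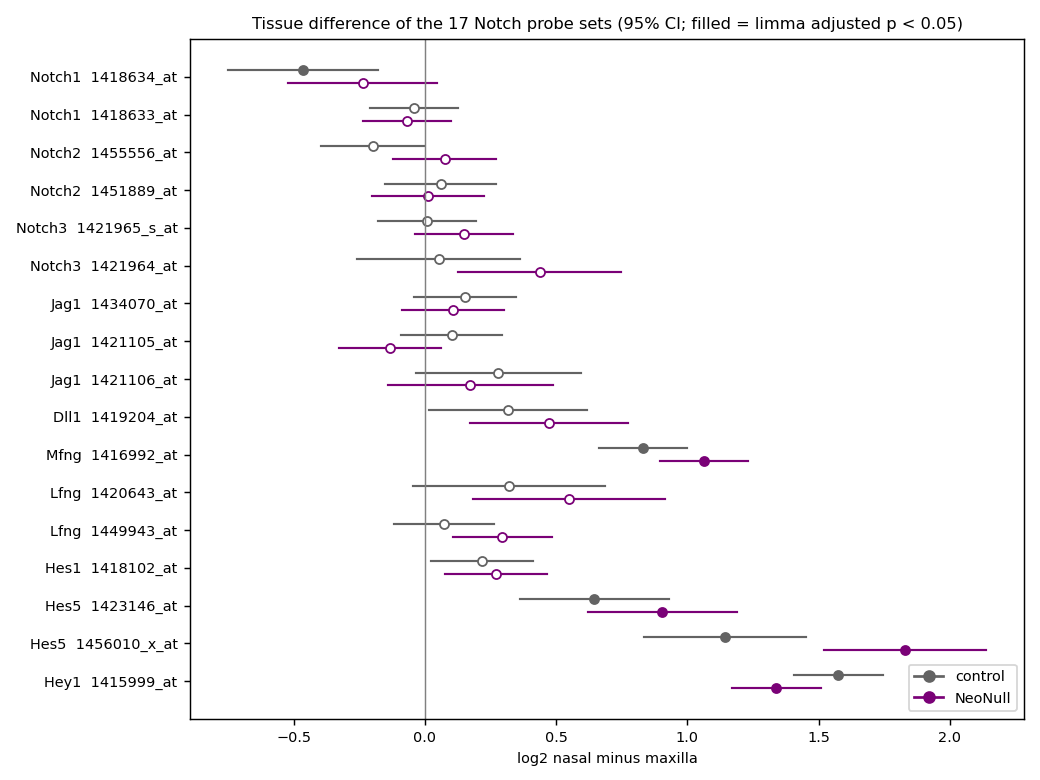
Nasal minus maxillary log2 difference of all 17 Notch probe sets in controls (grey) and NeoNull (purple), with 95% intervals from limma, where filled points passed the adjusted test. *Hey1*, *Mfng* and both *Hes5* probe sets are filled in both genotypes, from 0.65 to 1.83, and *Notch1* is the only filled point below 0. The intervals of *Dll1* and *Hes1* also lie above 0 in both genotypes, though their points did not pass.

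Markers of several cell types also differed between the prominences, and their part in these differences was not tested. Summed over 10 neural progenitor markers, the linear signal was 3238 to 3770 in nasal pools and 2287 to 2723 in maxillary pools. The list did not move one way. In controls 5 of its genes passed higher in nasal tissue and 1 lower, and in NeoNull 6 and 1, against 5.2% and 7.59% of all genes called higher. Of the 10 markers, 8 were called present in each nasal group, against 4 in control and 5 in NeoNull maxillary tissue. Several thus passed the filter through the nasal groups alone, and the counts of higher genes rest in part on that. *Fabp7* was lower, by -2.68 (limma adjusted p = 2.78e-05) in controls without control maxilla replicate 3. *Sox1*, one of the defining genes of this list, was called absent in all 4 groups, and *Pax6* and *Nes* were absent in maxillary tissue. In the endothelial list, all 10 genes were lower in nasal tissue in both genotypes, 6 of them past the adjusted test (5 in controls without control maxilla replicate 3), against 4.44% of 10646 genes called lower in controls and 4.17% of 10852 in NeoNull, with sums of 1594 to 1816 in nasal and 2010 to 2354 in maxillary pools. Surface ectoderm markers summed to 6337 to 7868 in nasal and 4508 to 6194 in maxillary pools, and facial mesenchyme markers to 4397 to 5837 and 7364 to 9243. Of 9 ectoderm markers, 4 passed higher in nasal tissue and 1 lower in controls, and 3 and 1 in NeoNull. *Trp63* was at -0.66 (limma adjusted p = 0.0228) in controls without control maxilla replicate 3. Of 6 mesenchyme markers, 3 passed lower in controls and 2 in NeoNull, with 0 higher. Neuron markers summed to 1373 to 1772 in nasal and 859 to 4380 in maxillary pools. The 859 was control maxilla replicate 3, and every other maxillary pool was at 2624 or above. Of 9 neuron markers, 3 passed lower in nasal tissue in controls (5 without control maxilla replicate 3) and 4 in NeoNull, with 0 higher. In pooled tissue, fewer cells of a type and less RNA per cell cannot be told apart.

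Between the genotypes no Notch probe set passed the adjusted test. In nasal tissue the members leaned towards NeoNull, with small values for each: the 10 brightest probe sets were all higher in NeoNull, by 0.07 to 0.25 log2 units. In maxillary tissue 4 were higher and 6 lower. A probe set was tested if called present in both genotypes of the prominence, which held for 12 nasal and 11 maxillary probe sets. Of the 12 nasal ones, 0 passed at an adjusted p under 0.05, against 0.00474% of 21088 probe sets, 4 were higher at an unadjusted p under 0.05, against 3.17%, and 5 were higher without overlap between the pools, against 6.22%. Of the 11 maxillary ones, 0 passed, as did 0% of all 21213, 2 were higher at an unadjusted p under 0.05, against 3.32%, and 1 was higher without overlap, against 6.41%. With 3 pools against 3, an exact permutation test cannot go below p = 0.1.

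The lean in nasal tissue stood on a background that leaned the same way. The median of the 10 members was 0.17, and that of all genes tested was 0.03, with 65.6% of them higher in NeoNull. Over all probe sets tested the share was 62.8%, and it moved to 52.6% with quantile normalization and to 70.6% with each array centred on its median, while the members stayed at 10 of 10 under both. With 1 array left out the count was 9 or 10. In maxillary tissue the members' median was -0.04 over all 10 and -0.02 over the 9 tested, and that of all tested genes was -0.02.

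**Figure D3:**
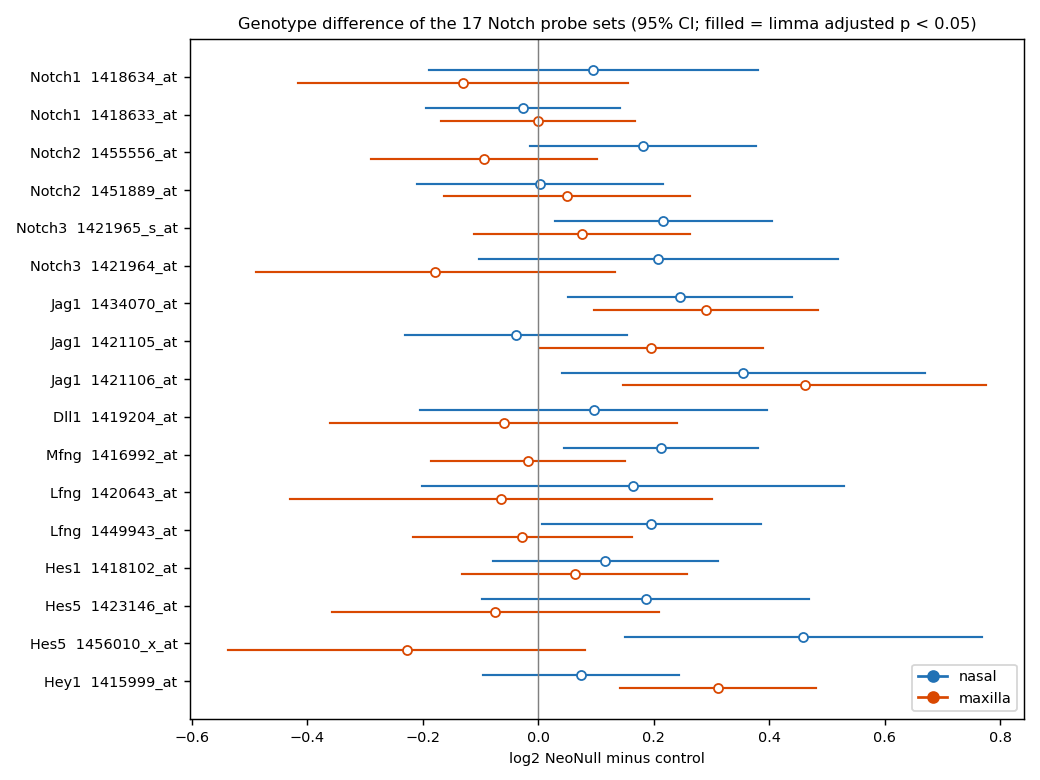
NeoNull minus control log2 difference of all 17 Notch probe sets in nasal (blue) and maxillary (orange) tissue, with 95% intervals from limma. No point is filled, since none passed the adjusted test, and *Jag1* (1434070_at and 1421106_at) is the gene whose intervals lie above 0 in both prominences.

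*Jag1* was the member with the most even lean. On its brightest probe set, 1434070_at, NeoNull nasal pools gave 7.84, 7.86 and 7.85 and control nasal pools 7.56, 7.63 and 7.63, with no overlap. NeoNull maxillary pools gave 7.77, 7.56 and 7.90 and control maxillary pools 7.36, 7.40 and 7.60, which overlap. The difference was 0.25 (SE 0.09, limma unadjusted p = 0.0173) in nasal and 0.29 (SE 0.09, limma unadjusted p = 0.00669, adjusted p = 0.913) in maxillary tissue, and 0.36 (adjusted p = 0.259) in the latter without control maxilla replicate 3.

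The dimmer *Jag1* probe set 1421106_at was present in NeoNull and variable in controls, so it was not in the adjusted test. It gave 4.80, 5.03 and 4.86 in NeoNull nasal and 4.24, 4.61 and 4.77 in control nasal pools. In maxillary tissue it gave 4.86, 4.41 and 4.90 in NeoNull and 4.35, 4.28 and 4.16 in controls. The pools did not overlap in either prominence, and the differences were 0.35 (SE 0.15) and 0.46 (SE 0.15). The third, 1421105_at, was not called present in any group and differed by -0.04 (SE 0.09) in nasal and 0.20 (SE 0.09) in maxillary tissue.

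*Hey1* had the smallest p of the members in maxillary tissue. As the values above show, its 3 NeoNull maxillary pools lay above its 3 control maxillary pools, by 0.31 (SE 0.08, 95% interval 0.14 to 0.48), with a limma unadjusted p of 0.00164 and an adjusted p of 0.724. The value was 0.25 (adjusted p = 0.337) without control maxilla replicate 3, and over all alternatives the adjusted p ran from 0.221 to 1.00. In nasal tissue the *Hey1* pools overlapped and differed by 0.07 (SE 0.08). The nasal minus the maxillary genotype difference was -0.24 (SE 0.11, limma unadjusted p = 0.0520).

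*Hes5* was read on both probe sets between the genotypes. Its probe set 1456010_x_at was higher in all 3 NeoNull nasal pools than in any control nasal pool, by 0.46 (SE 0.14, limma unadjusted p = 0.00694, adjusted p = 1.00). In maxillary tissue, where it was variable in NeoNull and absent in controls, it differed by -0.23 (SE 0.14), between values not called present. The gap between these was 0.69 (SE 0.20, limma unadjusted p = 0.00488, adjusted p = 0.999), and 0.82 (adjusted p = 0.535) without control maxilla replicate 3, with that limit on its maxillary side. Among 13 member probe sets tested for such a gap, 0 passed, as did 0% of 22148 probe sets, and this was the 1 with an unadjusted p under 0.05, against 3.87%. The brighter *Hes5* probe set gave smaller values, 0.19 (SE 0.13) in nasal and -0.07 (SE 0.13) in maxillary tissue, with overlapping pools in both. Its nasal value ran from 0.051 without control nasal replicate 2 to 0.35 without control nasal replicate 3.

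Of the fringe genes and receptors, *Mfng* and *Notch3* separated the nasal pools. The *Mfng* pools listed above did so by 0.21 (SE 0.08, limma unadjusted p = 0.0168), with -0.02 (SE 0.08) in maxillary tissue. *Notch3* gave 8.61, 8.46 and 8.47 in NeoNull nasal and 8.16, 8.45 and 8.29 in control nasal pools, a difference of 0.22 (SE 0.09, limma unadjusted p = 0.0266) with 0.019 log2 units between the nearest pools, and 0.08 (SE 0.09) in maxillary tissue. Its dimmer probe set differed by 0.21 (SE 0.14) in nasal tissue, again without overlap, and by -0.18 (SE 0.14) in maxillary tissue.

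The remaining members had overlapping pools on their brightest probe sets in both prominences. In nasal tissue *Notch1* differed by 0.10 (SE 0.13), *Notch2* by 0.18 (SE 0.09), *Dll1* by 0.10 (SE 0.14), *Lfng* by 0.16 (SE 0.17) and *Hes1* by 0.12 (SE 0.09). Of these, *Dll1* turned to -0.06 without NeoNull nasal replicate 3 and *Lfng* to -0.02 without control nasal replicate 1. In maxillary tissue the same genes lay between -0.13 (*Notch1*) and 0.06 (*Hes1*). Without control maxilla replicate 3 the *Notch1* value was -0.28 (limma unadjusted p = 0.0308, adjusted p = 0.438). The other maxillary values on the brightest probe sets were then 0.04 for *Notch3*, -0.04 for *Notch2*, -0.08 for *Dll1*, -0.00 for *Mfng*, -0.13 for *Lfng*, -0.01 for *Hes1* and -0.13 for *Hes5*, and the gap of *Hey1* between the prominences was -0.18 (unadjusted p = 0.128). Of the dimmer probe sets, *Jag1* 1421106_at then differed by 0.41 and *Notch3* 1421964_at by -0.30, the first not in the adjusted test and the second not past it.

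In maxillary tissue 42.8% of all genes had higher means in NeoNull. All 9 neuron markers did, with a median difference of 1.17 and 0 past the adjusted test. Without control maxilla replicate 3, the pool with the low sum given above, 8 of 9 were higher and the median was 0.28. Of 9 surface ectoderm markers 8 were higher (median 0.12, and 0.27 without that pool), and of 6 facial mesenchyme markers 5 were lower (median -0.14, and -0.24 without it), again with 0 past the adjusted test. The part of these lists in the values of *Jag1* and *Hey1* was not tested. In nasal tissue 8 of 10 neural progenitor markers were higher in NeoNull, against 52.2% of all genes, with 0 past the adjusted test. Their sums were 3599.7 to 3770 in NeoNull and 3238 to 3720 in controls. Neuron and surface ectoderm markers also leaned higher, with 7 of 9 in each list, while 5 of 10 endothelial and 2 of 5 proneural markers were higher. The part of these lists in the values of *Hes5*, *Mfng* and *Notch3* was not tested. The 6 facial mesenchyme markers were all lower there (median -0.07, 0 past the adjusted test), and their part was not tested either.

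The rest of the pathway was read from 53 further genes in lists of receptors, ligands, sugar-adding enzymes, receptor cleavage, trafficking, nuclear factors and targets, of which 48 had a probe set of their own. *Rbpj*, the DNA-binding partner of all Notch receptors, did not separate any groups: its pools lay between 8.90 and 9.07 throughout. Between the prominences, 4 of 38 tested genes rose and 1 fell in controls, against 5.2% and 4.44% of all 10646 genes tested. In NeoNull 4 of 39 rose and 1 fell, against 7.59% and 4.17% of 10852. *Dlk1*, a Delta-like protein without the domain that activates receptors, was higher in nasal tissue by 0.78 (SE 0.14) in controls and 1.17 (SE 0.14) in NeoNull. *Dtx4*, a Deltex ubiquitin ligase, followed at 0.42 (SE 0.11) and 0.43 (SE 0.11), and *Hes6*, a Hes relative that opposes Hes1, at 0.40 (SE 0.08) and 0.52 (SE 0.08). These 3 genes passed in both genotypes. *Kat2b*, an acetyltransferase of the Notch transcription complex, passed in controls (0.58, SE 0.10) and not in NeoNull. Its genotypes were not shown to differ here, since the gap given below did not pass the adjusted test. *Furin*, the protease that cuts the receptor during its maturation, passed in NeoNull (0.30, SE 0.08, with 0.18 and a limma adjusted p of 0.203 in controls). *Psen2*, a catalytic subunit of the γ-secretase that releases the intracellular domain, had higher values in all nasal than in all maxillary pools of each genotype, with 0.41 (SE 0.12, limma adjusted p = 0.0534) in controls and 0.26 (SE 0.12, limma adjusted p = 0.224) in NeoNull, and passed in neither. *Kat2a*, a relative of *Kat2b*, differed by 0.27 in NeoNull (SE 0.09, limma adjusted p = 0.0828). Leaving out control maxilla replicate 3, 3 genes rose and 2 fell in controls: *Dlk1* (0.75), *Kat2b* (0.54) and *Hes6* (0.31) kept their call, *Dtx4* lost it (0.32, limma adjusted p = 0.0951), and *Psen2* was at 0.33.

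The gene that fell was *Hey2*, a close relative of *Hey1* known from heart and arteries. Its mean was 4.25 ± 0.23 (SD, n = 3) in control nasal and 4.95 ± 0.15 (SD, n = 3) in control maxillary tissue, a difference of -0.69 (SE 0.12, limma adjusted p = 0.00203), and -0.72 (SE 0.12, limma adjusted p = 0.00130) in NeoNull. *Hey1* and *Hey2* thus had opposite signs between the prominences in both genotypes. *Hey2* was called present in both maxillary groups. Its 2 control means lay below the array medians of 5.13 to 5.19, so its nasal value may be limited by background, which was not measured. Its control difference was -0.77 without control maxilla replicate 3 (limma adjusted p = 0.00302). The other targets in the adjusted test with an unadjusted p under 0.05 were *Nrarp*, an inhibitor of Notch that Notch itself switches on, at 0.35 (SE 0.13, limma adjusted p = 0.117) in controls and 0.36 (SE 0.13, limma adjusted p = 0.102) in NeoNull, and *Heyl* at -0.39 (SE 0.13, limma adjusted p = 0.0791) in controls. Without that pool *Heyl* passed in controls (-0.53, limma adjusted p = 0.0134) and *Nrarp* was at 0.19. *Hes2*, not in the adjusted test for want of presence calls, differed by 0.31 (SE 0.09, limma unadjusted p = 0.00488) in controls. The same holds for *Dner*, a further ligand, at 0.41 (SE 0.12, limma unadjusted p = 0.00428) in NeoNull, and for *Neurl1b*, a ligase of ligand uptake, at 0.32 (SE 0.10, limma unadjusted p = 0.00986) in NeoNull.

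**Figure D4:**
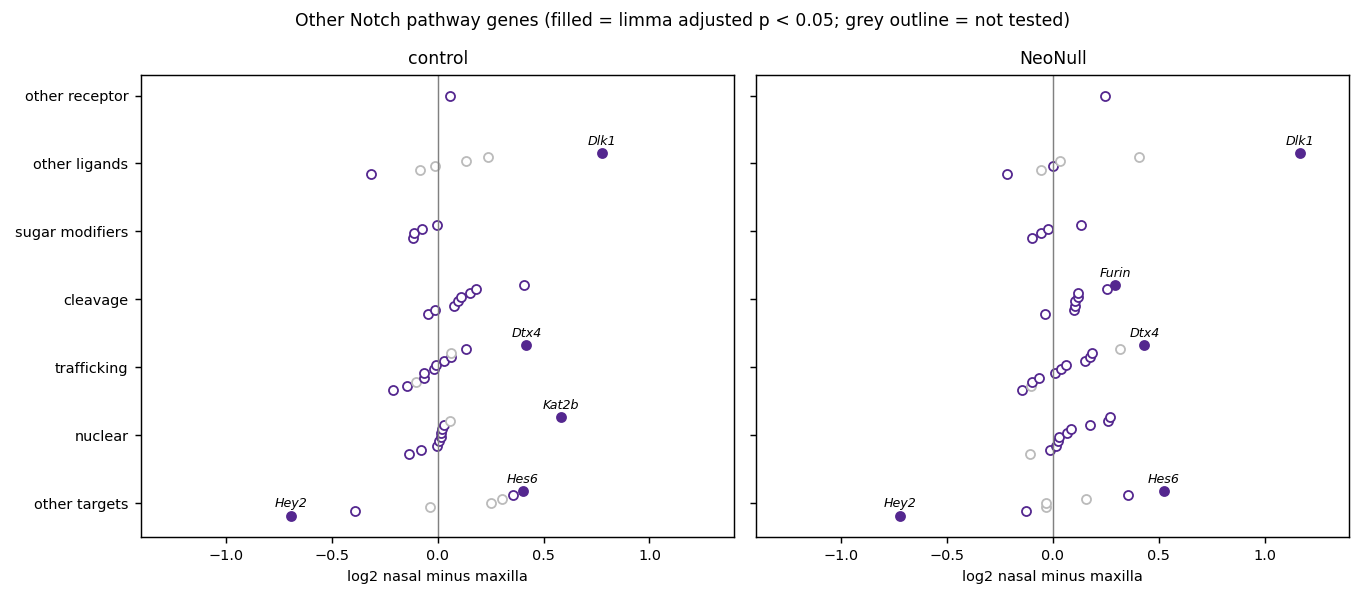
Nasal minus maxillary log2 difference of the 48 other Notch pathway genes, by list, in controls (left) and NeoNull (right), where filled points passed limma's adjusted test and grey outlines were not tested. Most points lie near 0, *Dlk1*, *Dtx4* and *Hes6* are filled to the right in both panels and *Hey2* to the left.

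Between the genotypes 0 of these genes passed, among 37 tested in nasal and 36 in maxillary tissue, against 0.00987% of 10136 genes and 0% of 10060. In nasal tissue 2 were higher at an unadjusted p under 0.05, against 3.26%, *Dlk1* at 0.38 (SE 0.14) and the coactivator *Crebbp* at 0.21 (SE 0.09). In maxillary tissue *Kat2b* was the 1 such gene among those tested, against 2.66%, at 0.44 (SE 0.10, limma adjusted p = 0.638), and 0.40 without control maxilla replicate 3. Its gap between the prominences was -0.32 (SE 0.15, limma unadjusted p = 0.0476), and -0.27 without that pool. Outside the adjusted test, *Neurl1b* differed in maxillary tissue by -0.35 (SE 0.10, limma unadjusted p = 0.00573) and *Hes2* was at 0.25 (SE 0.09, limma unadjusted p = 0.0174), with gaps between the prominences of 0.42 (unadjusted p = 0.0144) and -0.34 (unadjusted p = 0.0206). The remaining ligands and receptor had no call in any comparison: *Jag2* differed between prominences by -0.31 (SE 0.14, limma adjusted p = 0.210) in controls, *Notch4* by 0.25 (SE 0.10, limma adjusted p = 0.182) in NeoNull, *Dll3* by -0.08 (SE 0.14) in controls, and *Dll4*, a ligand of vessels, was called variable in nasal and absent in maxillary tissue.

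Genes whose pattern over the 12 arrays was most like a member's were sought among 20911 named probe sets. For *Hey1* they were *Nr2e1* (Pearson r of 0.990), a nuclear receptor of the forebrain and eye, *Tfap2b* (0.990), the relative of *Tfap2a*, and *Ssx2ip* (0.988). For *Mfng* they were *Cldn3* (0.993), a tight-junction gene of epithelia, *Wscd1* (0.988) and *Shtn1* (0.988). For *Hes5* they were *Gyg* (0.970), *Slc25a30* (0.968) and *Mkrn1* (0.966). For *Notch1* they were *Mpped2* (0.989), *Lhfpl2* (0.984) and *Fez1* (0.972). For *Notch2*, *Notch3* and *Jag1* the highest r was 0.910, 0.912 and 0.905. The 12 points of each r share 2 tissues and 4 groups, and how much of an r lies between the tissues was not computed.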

How the data were processed

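Signals of 12 arrays (Mouse430 2.0, 3 pools per group) were used as deposited. The authors deposited log2 signals per probe set. The authors' methods describe one scaling factor per array in the GeneChip Operating Software and a file header names MAS5.0; neither states a log or how probes were summarised, so folds are those of the deposited scale. Detection calls per group were deposited as a score (1 present, -1 absent, 0 variable); how 3 arrays were combined is not stated. A further 12 columns repeating the log2 values were not used. After 64 control probe sets were left out, 34945 of 45037 had 1 gene symbol, 932 several and 9160 none. The methods name no test per gene for these arrays.

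A mean per group was fitted with limma 3.58.1 in R 4.3.3 (lmFit, eBayes; 8 residual and 4.72 prior degrees of freedom), with Benjamini-Hochberg adjustment over the probe sets tested in a contrast and a threshold of 0.05. A probe set was tested if called present in both genotypes (genotype contrasts), in at least 1 group (tissue) or in both genotypes of at least 1 prominence (their difference). The steps were tested on simulated data. Depth does not apply to arrays; their number limits precision.

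Pools with the same number deviated together between the prominences (correlations of 0.159 to 0.231 in NeoNull and 0.194 to 0.271 in controls) and between genotypes in maxillary tissue (0.152 to 0.47, where pools 1 and 2 correlated about as well crossed, at 0.166 and 0.246), but not in nasal tissue (-0.182 to 0.169). The pairing comes from these data, not from the labels. Alternatives were other filters, scalings, an offset of 32 on the linear scale, variance models, the replicate block and each array left out. All members were named, with up to 4 genes per pathway list and comparison (smallest p among those at an unadjusted p under 0.05) and *Rbpj*, *Notch4*, *Dll4*, *Jag2* and *Dll3*. The 5 other listed pathway genes are not reported here. Members and lists were chosen with earlier results of these data known.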

Additional observations from a re-analysis of the deposited data

How the results depend on the processing

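Across all alternatives, 0 member probe sets passed the adjusted test between genotypes or for the difference between prominences. *Hey1* and *Mfng* were called between the prominences under every alternative and *Hes5* wherever it was tested. The count of probe sets called in controls (5) fell to 2 when presence was required in all 4 groups or in both groups compared, which leaves *Hes5* untested, and so did that in NeoNull (4). In NeoNull it was 7 with an intensity trend and robust variance. With 1 array left out, it ran from 4 to 5 in controls and from 4 to 6 in NeoNull, the upper end without NeoNull nasal replicate 2 or NeoNull maxilla replicate 1. The replicate block left 5 calls in controls, gave 6 in NeoNull and changed no other call of a member; a block of 6 pairs gave the same counts. *Notch1* in controls lost its call in 17 of 23 alternatives, *Dll1* in NeoNull gained one in 6 and *Lfng* in 5. Member probe sets, not genes, at an unadjusted p under 0.05 numbered 3 to 6 in nasal tissue (2 to 6 with 1 array left out), 2 to 4 in maxillary tissue (2 to 3) and 0 to 4 for the difference between prominences (1 to 4). With no filter on detection calls, the nasal 6 included dimmer probe sets of *Jag1* and *Lfng*. The nasal count, 4 on all arrays, was 2 without NeoNull nasal replicate 1 or control nasal replicate 1 and 6 without control nasal replicate 3, and the count for the difference, 1 on all arrays, was 4 without the last of these and 1 without NeoNull nasal replicate 1 or NeoNull maxilla replicate 3, with 2 or 3 without any other array. Signs changed only in values not called. Other probe sets gave -0.026 for *Notch1* and -0.038 for *Jag1* (genotype, nasal), 0.050 for *Notch2* and -0.18 for *Notch3* (genotype, maxilla), 0.060 for *Notch2* (tissue, controls), -0.13 for *Jag1* (tissue, NeoNull) and -0.026 for *Notch1* and -0.047 for *Notch2* (difference between prominences). With 1 array left out the genotype difference ran from -0.057 to 0.23 for *Dll1* and from -0.020 to 0.39 for *Lfng* in nasal tissue, and from -0.14 to 0.039 for *Dll1*, -0.061 to 0.013 for *Mfng* and -0.0068 to 0.14 for *Hes1* in maxillary tissue. In the same way *Notch3* ran from -0.066 to 0.076 between prominences in controls, and the difference between prominences from -0.14 to 0.034 for *Jag1* and from -0.021 to 0.12 for *Hes1*. The cause of these changes was not tested. Folds of *Hes5* and of other probe sets called absent or variable are limited by signal over background, which was not measured.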
